A study of Mus musculus with 4 samples.

Results

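Open chromatin that lies away from protein-coding genes was described in CD93-negative haematopoietic stem cells (HSCs) of the mouse. The members were chosen by position alone, as summits of CD93-negative replicate 1 on chromosomes 1 to 19 and X that lay outside every protein-coding gene body and more than 1000 bp from both ends of every such gene. They numbered 698 of the 7977 summits of that list on these chromosomes, a share of 8.75% (exact 95% interval 8.14 to 9.39%). A summit is the base of a peak where the signal of inserted transposase is highest, and each carried a score, the −log10 of a p or q value from the peak caller. The 5 members with a score of 200 or more are given in a paragraph of their own as likely artefacts. The other 693 are the intergenic sites described in most of the text, and shares of whole lists and of score deciles count all scores. The lowest score kept apart was 234.6 and the highest below the threshold was 153.5.

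The 4 ATAC-seq libraries, 2 for each CD93 fraction, all came from wild-type C57BL/6 male mice 8 weeks old. Bone marrow was flushed from femora and tibiae that were pooled, depleted of lineage-positive cells, and sorted for LSK cells lacking CD34, Flt3 and CD48 and carrying Slam1, so both groups shared this gate and differed only in surface CD93. CD93 is a C-type lectin-like receptor also known from endothelial and early B-lineage cells. Whether replicates were taken from different mice is not stated in the labels, so any p-value measures only the spread between these libraries, which may be technical. The lists held 7989 and 2755 summits in the CD93-negative replicates and 21 and 711 in the CD93-positive replicates 1 and 2, and the read depth behind them is unknown.

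The cell label was checked against marker lists by counting genes with a summit within 1000 bp of an end in CD93-negative replicate 1, which 32.6% of all protein-coding genes had. HSC transcription factor and identity genes had one at 9 of 37, endothelial and stromal genes at 0 of 24, lymphoid genes at 4 of 28, megakaryocyte and erythroid genes at 5 of 28, myeloid genes at 10 of 26 and ribosomal and housekeeping genes at 34 of 40. The defining endothelial markers were thus without a gene-end summit, and the share at HSC genes was not above that of all genes.

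Tn5 transposase cuts where nucleosomes are absent or displaced. Away from protein-coding genes such places are known to be enhancers, insulator sites and promoters of genes that make no protein. The latter include long non-coding RNAs (lncRNAs), the host transcripts of microRNAs and small nucleolar RNAs, and the short genes that RNA polymerase III transcribes, such as those for tRNAs, 7SL and 7SK. Repeated sequence that a genome build holds in too few copies can also collect reads and appear as an extreme peak.

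Sequence at the sites themselves was available only where they fell in promoter windows of non-coding genes. Of the 693 sites, 75 (10.8%, exact 95% interval 8.61 to 13.4%) fell in a window reaching from 250 bp before to 50 bp after an annotated start. The 6 windows printed here, from RefSeq (GRCm38.p6), were chosen because the site recurred in other lists (Mir22hg, Snhg5, Snhg8, Crnde, Chaserr) or because the transcript hosts microRNAs (Mir22hg, Dleu2). Capitals mark matches on either strand to the GC box GGGCGG, the CCAAT box or the TATA box TATAAA, and each line is written 5′ to 3′ on the strand of the gene.
Mir22hg, chr11:75461289-75461588, plus strand: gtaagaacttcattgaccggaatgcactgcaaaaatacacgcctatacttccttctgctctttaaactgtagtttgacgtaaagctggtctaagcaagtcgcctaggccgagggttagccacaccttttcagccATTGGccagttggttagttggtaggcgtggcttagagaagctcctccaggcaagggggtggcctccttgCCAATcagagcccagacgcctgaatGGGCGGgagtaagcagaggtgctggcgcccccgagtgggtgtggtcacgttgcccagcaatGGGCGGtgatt
Snhg5, chr9:88522848-88523147, minus strand: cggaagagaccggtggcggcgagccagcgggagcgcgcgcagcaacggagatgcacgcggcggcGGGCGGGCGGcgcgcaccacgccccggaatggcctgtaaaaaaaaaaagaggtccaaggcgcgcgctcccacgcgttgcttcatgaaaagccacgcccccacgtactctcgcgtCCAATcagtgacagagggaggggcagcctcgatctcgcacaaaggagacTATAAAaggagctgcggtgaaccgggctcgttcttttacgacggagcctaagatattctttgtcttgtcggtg
Snhg8, chr3:123508287-123508586, minus strand: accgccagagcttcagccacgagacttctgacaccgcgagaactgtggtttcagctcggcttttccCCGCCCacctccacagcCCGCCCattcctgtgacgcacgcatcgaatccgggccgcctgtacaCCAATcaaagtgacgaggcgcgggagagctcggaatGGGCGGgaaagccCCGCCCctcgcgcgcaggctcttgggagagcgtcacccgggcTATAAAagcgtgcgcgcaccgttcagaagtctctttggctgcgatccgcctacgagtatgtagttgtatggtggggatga
Crnde, chr8:92356071-92356370, minus strand: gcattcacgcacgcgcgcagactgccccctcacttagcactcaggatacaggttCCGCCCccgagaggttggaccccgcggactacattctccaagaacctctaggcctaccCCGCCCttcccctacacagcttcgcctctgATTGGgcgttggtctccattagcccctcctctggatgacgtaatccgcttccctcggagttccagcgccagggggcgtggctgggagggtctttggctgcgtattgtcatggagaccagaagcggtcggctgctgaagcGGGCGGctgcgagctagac
Chaserr, chr7:73558346-73558645, minus strand: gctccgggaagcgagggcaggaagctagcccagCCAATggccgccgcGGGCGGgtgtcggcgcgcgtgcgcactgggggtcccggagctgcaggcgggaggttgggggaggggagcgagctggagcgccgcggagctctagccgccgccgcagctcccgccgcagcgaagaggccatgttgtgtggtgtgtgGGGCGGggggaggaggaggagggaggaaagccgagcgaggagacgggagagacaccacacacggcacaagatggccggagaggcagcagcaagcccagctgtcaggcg
Dleu2, chr14:61682324-61682623, minus strand: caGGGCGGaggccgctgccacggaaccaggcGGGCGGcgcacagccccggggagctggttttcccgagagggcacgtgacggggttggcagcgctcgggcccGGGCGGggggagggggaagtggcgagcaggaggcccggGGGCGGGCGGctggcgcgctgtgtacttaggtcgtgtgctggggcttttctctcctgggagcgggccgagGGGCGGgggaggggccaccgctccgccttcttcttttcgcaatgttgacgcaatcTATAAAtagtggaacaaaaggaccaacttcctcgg

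All 6 windows held a GC box, 5 a CCAAT box and 3 a TATA box. Of all 32585 promoter windows, 35.9% held GGGCGG, 37.6% CCAAT and 13.7% TATAAA. The 6 were picked examples, and of all 82 windows that held a site the shares were 65.9, 37.8 and 15.9%. The summit lay 10 bp upstream of the annotated start in Mir22hg, 160 bp upstream in Snhg5, 121 bp in Snhg8, 34 bp in Crnde, 225 bp in Chaserr and 83 bp in Dleu2. Mir22hg is the host transcript of miR-22, a microRNA studied in HSC self-renewal and leukaemia. Snhg5 and Snhg8 are host genes of small nucleolar RNAs, Chaserr is an lncRNA next to Chd2 that is known to restrain it, Crnde lies beside Irx5, and Dleu2 hosts miR-15a and miR-16-1.

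Other intergenic sites lay beside microRNA genes themselves. The nearest non-coding gene was a microRNA within 10000 bp for 12 sites, which involved 10 microRNA genes. The mature sequences from RefSeq (GRCm38.p6) are shown for the microRNAs with known roles in blood cells or the hypoxia response, grouped by seed, with the seed (bases 2 to 8) in capitals.
miR-132-3p, chr11:75173723-75173744, plus strand: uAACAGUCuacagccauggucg
miR-212-3p, chr11:75173443-75173464, plus strand: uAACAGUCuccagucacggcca
let-7i-5p, chr10:122985698-122985719, minus strand: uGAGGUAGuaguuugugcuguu
let-7a-5p, chr13:48538239-48538260, minus strand: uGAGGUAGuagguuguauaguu
miR-22-3p, chr11:75463772-75463793, plus strand: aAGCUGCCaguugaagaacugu
miR-210-3p, chr7:141221407-141221428, minus strand: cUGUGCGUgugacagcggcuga
miR-17-5p, chr14:115043684-115043706, plus strand: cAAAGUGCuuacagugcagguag
miR-142a-3p, chr11:87756903-87756925, plus strand: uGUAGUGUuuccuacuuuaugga

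miR-132 and miR-212 share the seed AACAGUC and lie in 1 cluster. The site on chromosome 11 at position 75173648 sat between them, 34 bp upstream of the Mir132 hairpin and 170 bp downstream of the Mir212 hairpin, with a score of 10.7. let-7i and let-7a share the seed GAGGUAG. The let-7i site lay 482 bp upstream of its hairpin with a score of 14.6, and a pair of sites lay 7671 and 8382 bp upstream of the Mirlet7a-1 hairpin with scores of 23.2 and 48.2. Of the let-7a-1 pair, the higher one was also in CD93-negative replicate 2 (9.67) and CD93-positive replicate 2 (7.86). The site at the Mir22hg start lay 2187 bp upstream of the Mir22 hairpin. The Mir210 site lay 436 bp upstream of the hairpin with a score of 42.7, the Mir17 site 2889 bp upstream of the first hairpin of the miR-17-92 cluster with 26.8, and the Mir142 site 1313 bp upstream with 30.9. Of the 12 sites beside a microRNA gene, 2 were in CD93-negative replicate 2 and 1 in CD93-positive replicate 2. Of all 693 intergenic sites 15.01% and 4.62% were, and of all summits 32.0% and 8.59%. Most of the 12 were thus seen in 1 library only, like 581 of all 693 sites.

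In CD93-negative replicate 1 the intergenic sites were scored lower than sites at genes. Their median score over all 698 was 12.8 (quartiles 8.02 and 21.3), against 23.0 for the 6038 sites within 1000 bp of a gene end and 15.1 for the 1241 sites within gene bodies. The intergenic share went from 5.01% (exact 95% interval 3.605 to 6.763%) in the highest decile of score and 3.51% in the second to 19.6% (16.9 to 22.5%) in the lowest. In CD93-negative replicate 2 the highest decile held 6.55% and the lowest 9.85% (6.59 to 14.0%), with shares between 1.82% and 6.91% in the other deciles. In both CD93-negative lists the lowest decile had the highest intergenic share. In both the top decile stood above the second, with overlapping intervals. CD93-positive replicate 2 went the other way, with an intergenic share of 10.2% (6.17 to 15.7%) in the highest quartile of score, then 5.14 and 3.43%, and 2.29% (0.626 to 5.75%) in the lowest. Its 37 intergenic sites had a median score of 10.8, against 8.07 at its gene ends. All scores were counted in this paragraph, so the highest bins hold the sites of 200 or more. These were 5 of 40 intergenic sites in CD93-negative replicate 1, 3 of 18 in CD93-negative replicate 2 and 4 of 18 in CD93-positive replicate 2.

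**Figure D1:**
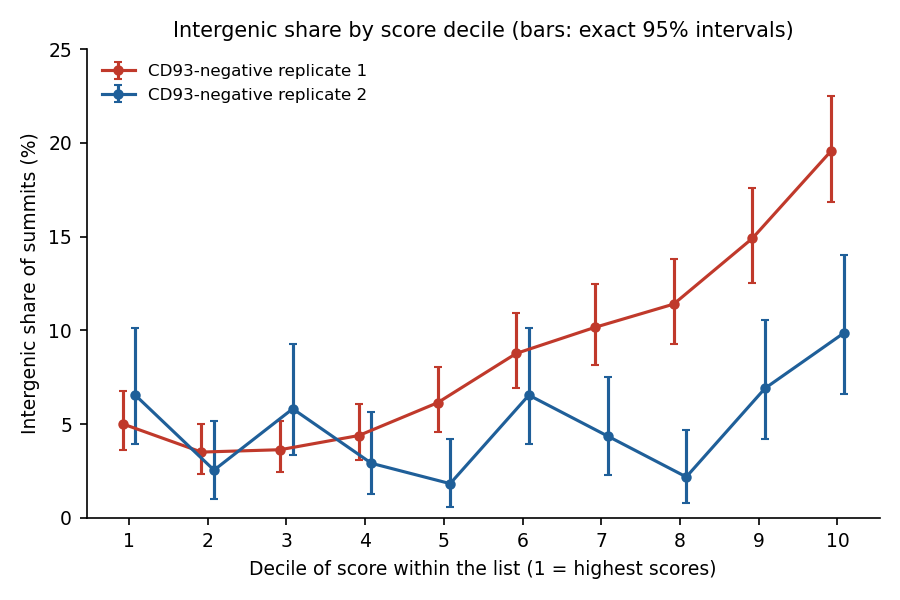
Share of summits that were intergenic (vertical axis, percent) in each decile of score within a list (horizontal axis, 1 is the highest), for both CD93-negative libraries, with exact 95% intervals. In replicate 1 the share goes from 5.01% in the top decile to 19.6% in the lowest; in replicate 2 it ends at 9.85%.

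The distance from the nearest protein-coding gene had a median of 13682 bp (quartiles 5818 and 36010 bp). There were 44 sites at 1000 to 2000 bp, 100 at 2000 to 5000 bp, 132 at 5000 to 10000 bp and 297 (42.9%) at 10000 to 50000 bp. A further 65 lay at 50000 to 100000 bp, 53 at 100000 to 500000 bp and 2 beyond 500000 bp. Where the strand of the nearest gene was known, 273 sites lay upstream and 260 downstream of 533, or 51.2% upstream (46.9 to 55.5%). The sites thus lay mostly more than 5000 bp from a gene, and the interval of the upstream share included an even split.

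The 5 farthest sites below 200 were on chromosome 2 at 1253698 bp from Zeb2 (score 10.95) and 1030987 bp from Lrrc4c (56.6), on chromosome 13 at 397533 bp from Sugct (7.31) and 361058 bp from Prl5a1 (5.69), and on chromosome 8 at 372609 bp from Csmd1 (26.8). None of them was in another list, as was the case for 581 of all 693 sites. Zeb2 encodes a transcription factor needed in blood differentiation, and Csmd1 a large transmembrane protein of the nervous system.

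**Figure D2:**
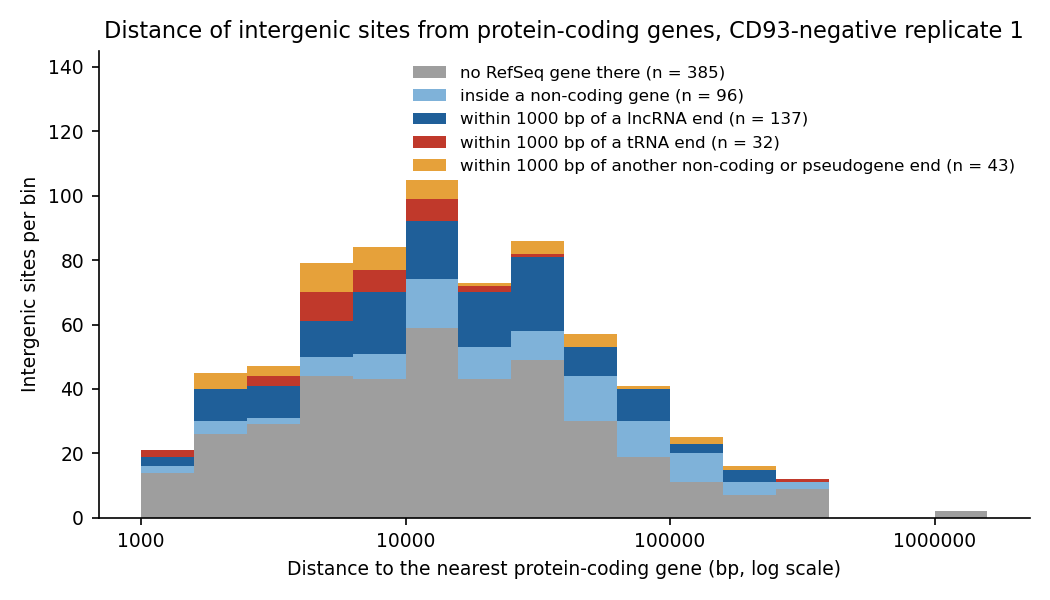
Number of intergenic sites below a score of 200 (vertical axis) by distance to the nearest protein-coding gene in bp (horizontal axis, log scale), coloured by what RefSeq places at the site. The distribution peaks near the median of 13682 bp, and the 32 sites at tRNA ends are mostly nearer to genes, with a median of 7601 bp.

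Many of these sites lay at genes that encode no protein. An end of a non-coding gene or pseudogene lay within 1000 bp of 212 of 693 sites (30.6%, exact 95% interval 27.2 to 34.2%), namely a lncRNA for 137, a tRNA gene for 32, a pseudogene for 21, a small RNA gene for 17 and a microRNA gene for 5. A further 96 sites (13.9%) lay inside a non-coding gene away from its ends, and 385 (55.6%) had no RefSeq gene at all. Counted over genes, an intergenic site lay within 1000 bp of an end of 60 of 408 tRNA genes (14.7%) and 154 of 12706 lncRNA genes (1.21%). Over all summits of the list the shares were 22.5% of tRNA genes, 7.89% of lncRNA genes, 5.05% of microRNA genes, 3.78% of small RNA genes and 0.723% of pseudogenes.

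The summits in non-coding promoter windows lay close to the start. Of the 75, 55 were upstream and 20 downstream, the median offset was -57 bp (quartiles -89 and 2.5 bp), and 57 were within 100 bp of the start. The window itself reaches farther upstream than downstream. The 82 windows that held a site had a median GC content of 59.8% and a median of 19 CpG, against 53.0% and 7 for all 32585 windows and 48.0% and 4 for the 11064 lncRNA windows with no summit. Protein-coding windows with a summit had 64.3% and 25. By base composition the occupied windows thus stood between occupied protein-coding windows and lncRNA windows with no summit, although several of them overlap each other and are not independent.

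Motif matches differed in order from motif to motif. GGGCGG was in 65.9% of the 82 windows, against 35.9% of all windows, 13.5% of lncRNA windows with no summit and 78.1% of protein-coding windows with one. The ETS core CCGGAAG was in 15.9%, against 8.92% of all windows, 3.16% of lncRNA windows with no summit and 26.0% of protein-coding windows with a summit, so for both motifs these windows stood between the sets with and without a summit. TGACGTCA, the cyclic AMP response element, was in 6.10%, a count of 5 windows, against 1.80% of all windows, 0.804% of lncRNA windows with no summit and 4.81% of protein-coding windows with one. CCAAT was in 37.8%, close to the 37.6% of all windows. TATAAA was in 15.9% (all windows 13.7%), close to the 16.0% of lncRNA windows with no summit and above the 4.46% of protein-coding windows with one. TGACTCA (AP-1) was in 3.66% (all windows 5.23%), below the 6.34% of lncRNA windows with no summit and above the 2.23% of protein-coding windows with one. GCGCATGC (NRF1) was in 4.88%, a count of 4 windows, against 2.71% of all windows. It was in 0.868% of lncRNA windows with no summit and 7.97% of protein-coding windows with one. Both strands were searched, none of these motifs contains another, and a match describes the sequence only.

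**Figure D3:**
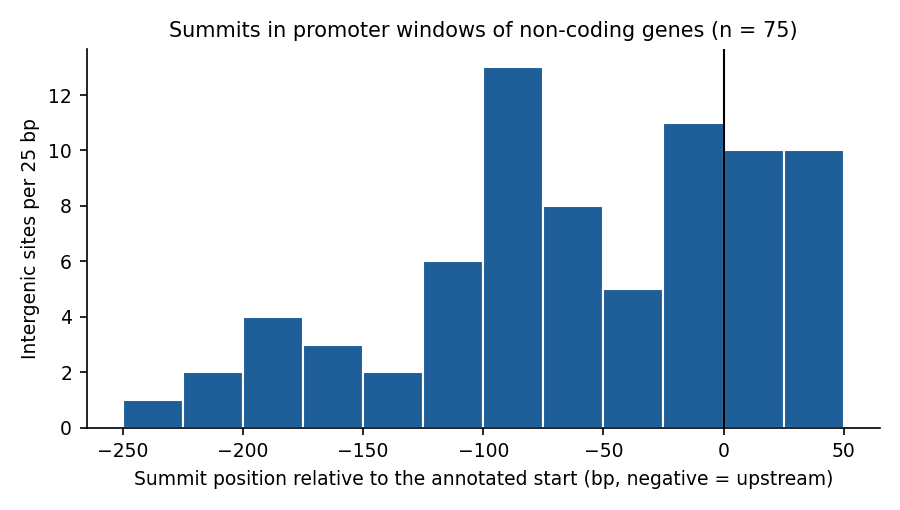
Position of the 75 intergenic summits in promoter windows of non-coding genes relative to the annotated start in bp (horizontal axis, negative is upstream), as sites per 25 bp (vertical axis). Most lie upstream of the start, with a median of -57 bp, and 57 are within 100 bp of it.

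Strong sites at lncRNA starts were named by rank of score. The start of Chaserr (score 91.1) also had a summit in CD93-negative replicate 2 (27.995) and none in the CD93-positive lists. The start of D130051D11Rik, whose nearest protein-coding gene is Wnt7b, had scores of 88.5, 22.3 and 6.94 in CD93-negative replicates 1 and 2 and CD93-positive replicate 2. Mir22hg had 81.95, 19.01 and 15.19 in the same order, Snhg5 81.9, 12.9 and 8.95, and Snhg8 66.4, 17.7 and 10.5. Apart from Chaserr, these sites were thus in all 3 longer lists, with the lowest score in the CD93-positive library each time. Gm38882 (66.3, 8.98 and 7.28) and Crnde (23.0, 8.47 and 6.55) followed the same order, as did the site 266 bp from an end of 1700096K18Rik (106.5, 15.8 and 9.22). The scores are not scaled between libraries.

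The RNA polymerase III genes formed a group of their own. The 32 tRNA sites belonged to 32 genes of 15 amino acid letters, with the summit at a median of 67 bp from the gene (2 to 382 bp) and 28 of 32 within 150 bp. Their scores ran from 3.10 to 56.1 with a median of 12.8. The highest were at n-TNgtt14, an asparagine tRNA gene on chromosome 5 (56.1, and 11.3 in CD93-negative replicate 2), and at n-TRccg1, an arginine tRNA gene on chromosome 11 (46.1, and 9.63). Of the 32, 8 were in CD93-negative replicate 2 (25.0%, exact 95% interval 11.5 to 43.4%), beside 15.01% of all intergenic sites. CD93-positive replicate 2 held 0, and a count of 0 allows up to 10.9%. Absence from the shorter list was therefore not distinguishable from the 4.62% of all intergenic sites found there.

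Among small RNA genes, the highest site lay 10 bp from Rn7s2, which encodes the 7SL RNA of the signal recognition particle, with 104.1 in replicate 1 and 15.5 in replicate 2 of the CD93-negative cells. Rn7sk, the 7SK RNA that holds the elongation factor P-TEFb inactive, had a site at 90 bp with 18.2 and 6.57. The spliceosomal genes Rnu2-10, Rnu11 and Rnu5g had sites at 59, 41 and 44 bp with scores of 16.6, 8.05 and 7.96 and no summit in another list. Of the 17 small RNA sites 3 were in CD93-negative replicate 2 and 0 in CD93-positive replicate 2.

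Recurrence of the intergenic sites was low and depended on score. A summit lay within 250 bp in CD93-negative replicate 2 for 104 of 693 (15.01%, exact 95% interval 12.4 to 17.9%), where 32.0% of all summits of the list recurred. In CD93-positive replicate 2 it was 32 (4.62%, 3.18 to 6.46%) against 8.59% of all summits, and in CD93-positive replicate 1 it was 2 (0.289%) against 0.1%. Both CD93-negative replicate 2 and CD93-positive replicate 2 held 24 of the sites, and 581 were in no other list. Sites at a non-coding end made up 43 of the 104 recurring in CD93-negative replicate 2 (41.3%), beside 30.6% of all 693.

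Within bands of score the picture differed between weak and strong sites. In CD93-negative replicate 2, 0 of 46 intergenic sites below 5 recurred, 3.26% at 5 to 10, 11.3% (7.67 to 16.0%) at 10 to 20, 25.9% (18.99 to 33.71%) at 20 to 50 and 81.6% (65.7 to 92.3%) at 50 to 200. Gene-end sites gave 0, 6.90, 17.4 (15.7 to 19.3), 42.8 (40.9 to 44.7) and 83.8% (81.1 to 86.3) in the same bands. The intervals did not overlap at 20 to 50, and overlapped widely at 50 to 200. Split further, the shares were 13.2% (5.48 to 25.3%) against 30.2% (26.7 to 33.9%) at 20 to 25, and 45.8% (25.6 to 67.2%) against 58.9% (54.7 to 63.0%) at 40 to 50. Sites within gene bodies recurred at 38.5% (33.5 to 43.7%) at 20 to 50, which overlaps the intergenic interval by a narrow margin. In CD93-positive replicate 2 the shares at 50 to 200 were 50.0% (33.4 to 66.6%) for intergenic and 42.8% (39.3 to 46.3%) for gene-end sites. The intervals are for counting error alone and take each summit as independent.

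**Figure D4:**
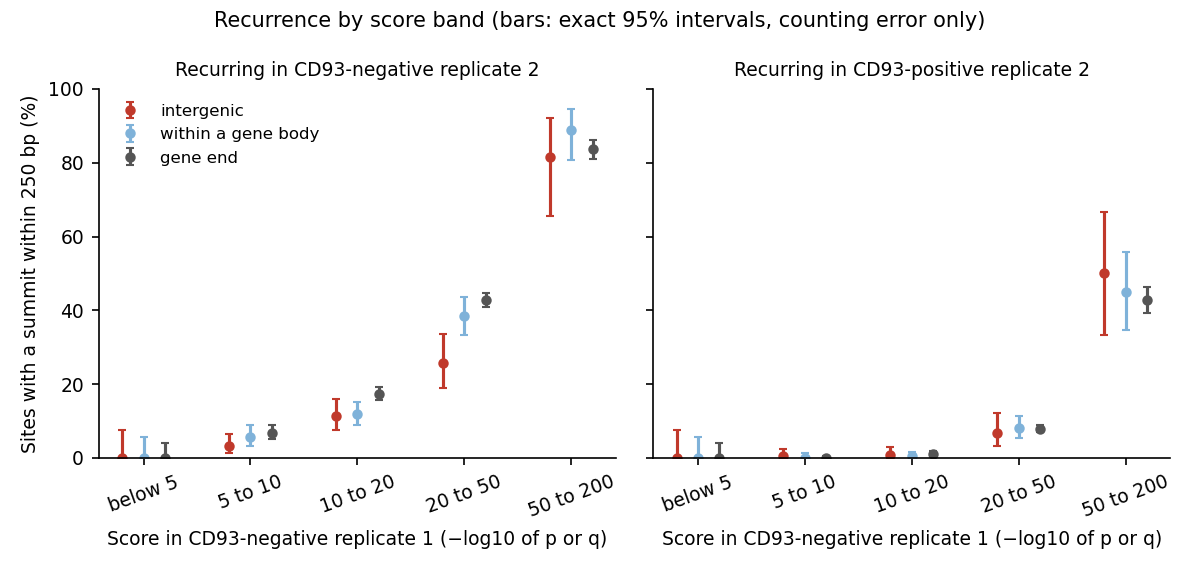
Share of sites of CD93-negative replicate 1 with a summit within 250 bp in CD93-negative replicate 2 (left) and CD93-positive replicate 2 (right), by score band, for intergenic, gene-body and gene-end sites, with exact 95% intervals. At scores of 20 to 50 the intergenic share in the left panel is 25.9% against 42.8% for gene ends; at 50 to 200 it is 81.6% against 83.8%.

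Recurrence in CD93-positive replicate 2 was highest in 1 class of distance and did not change steadily with it. The shares were 6.82% (3 of 44) at 1000 to 2000 bp, 0 of 100 at 2000 to 5000 bp, 3.79% at 5000 to 10000 bp, 3.70% (1.86 to 6.53%) at 10000 to 50000 bp and 4.62% at 50000 to 100000 bp. At 100000 to 500000 bp the share was 18.9% (9.44 to 32.0%), and beyond that it was 0 of 2. In CD93-negative replicate 2 the shares in the same order were 18.2, 14.0, 15.2, 14.8, 12.3 and 18.9%, and 0 of 2. With only scores below 100 counted, 7 of 52 sites over 100000 bp from a gene (13.5%, 5.59 to 25.8%) and 19 of 633 nearer sites (3.00%, 1.82 to 4.65%) were in CD93-positive replicate 2. In CD93-negative replicate 2 the same sites gave 13.5% and 14.2%, and the difference between the lists was not tested.

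The 24 sites in all 3 longer lists differed in which of the other lists gave the higher score. CD93-positive replicate 2 scored above CD93-negative replicate 2 at 9 of the 24, where 15.8% of all 570 summits below 200 in these lists did. The 9 were 7 of 7 sites over 100000 bp from a gene, 1 of 3 at 50000 to 100000 bp and 1 of 14 within 50000 bp, with median score ratios (CD93-positive over CD93-negative) of 1.31, 0.658 and 0.629. At gene ends it was 65 of 482 (13.5%, 10.6 to 16.9%) with a median ratio of 0.589. Of the 4 members of 200 or more in all 3 longer lists, 3 also scored higher in CD93-positive replicate 2, with a median ratio of 1.09. The 7 sites over 100000 bp included neighbouring pairs and are not independent. The split by distance was made after the values were seen, has no test, and rests on unscaled scores.

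The sites behind this pattern were as follows. On chromosome 11 at position 109011798, inside the lncRNA gene Gm36876 and 61015 bp from Axin2, the scores were 153.5, 49.2 and 86.9 in CD93-negative replicates 1 and 2 and CD93-positive replicate 2. On chromosome 3 at 5860628, 282032 bp from Pex2, they were 117.4, 41.5 and 64.0. On chromosome 17 a pair of sites at 39844338 and 39848423 flanked Rn18s-rs5, a pseudogene named for 18S ribosomal RNA. The scores were 112.9, 24.6 and 40.9 at the first and 35.6, 8.52 and 15.9 at the second. With a sharing distance of 100 bp the first had no summit in another list. On chromosome 9 the sites at 3000545 and 3006817, 334686 and 328414 bp from Alkbh8, had 107.6, 74.9 and 79.4 and 79.6, 48.7 and 62.9. All of these were higher in the CD93-positive than in the second CD93-negative list, and the sites near Alkbh8 lay on the same stretch as a member of 200 or more. The remaining 2 over 100000 bp were near Fgf14 on chromosome 14 (20.5, 7.35 and 9.65) and Pcmtd1 on chromosome 1 (11.8, 4.10 and 5.21). The sites near Alkbh8 at 3000545 (49.5) and near Fgf14 (5.52) were the 2 below 200 that CD93-positive replicate 1 also held.

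**Figure D5:**
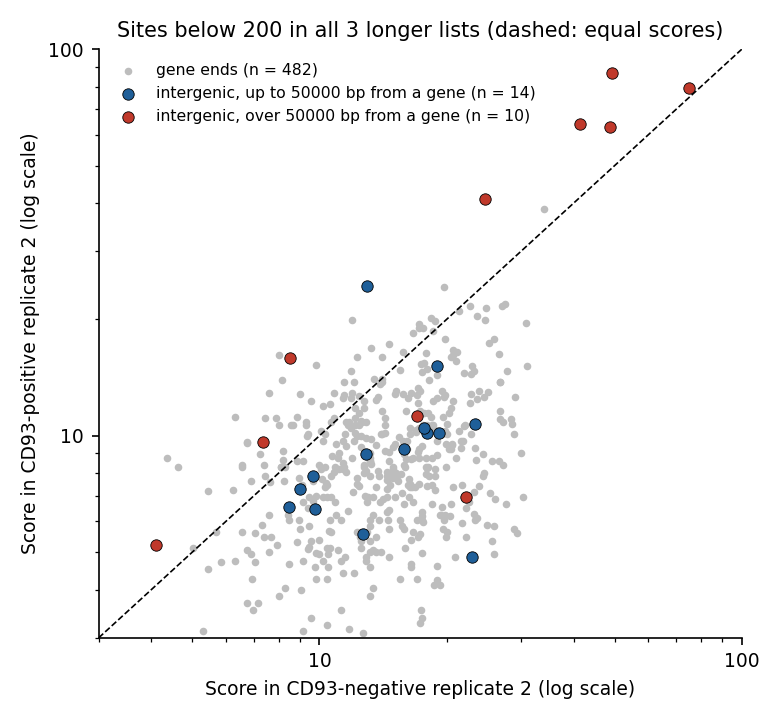
Scores in CD93-negative replicate 2 (horizontal axis) and CD93-positive replicate 2 (vertical axis), both on log scales, at sites below 200 in all 3 longer lists, with equal scores as a dashed line. Of the 10 intergenic sites over 50000 bp from a gene 8 lie above the line, of the 14 nearer ones 1, and of 482 gene-end sites 65.

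Nearer to genes, shared sites had the order seen at gene ends. On chromosome 7 at 38085072, inside Gm30771 and 12912 bp downstream of Ccne1, which encodes cyclin E1, the scores were 104.8, 19.2 and 10.2. On chromosome 13 the site 7017 bp from Mier3 had 45.9, 23.4 and 10.8, and on chromosome 15 the site 6424 bp from Trappc9 had 70.2, 23.0 and 4.86. The exception was the site 8368 bp from Rimbp3 on chromosome 16, with 59.1, 12.9 and 24.4.

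High score did not ensure recurrence, among intergenic sites or over the whole list. At scores of 50 to 200, 4 of 38 intergenic sites were in no other list, beside 121 of 933 of all summits. The highest site in no other list was on chromosome 12 at 120028833, 7591 bp downstream of Tmem196, with a score of 105.4. It was followed by the end of the transcribed pseudogene 2610005L07Rik near Gm15319 (60.7), the site near Lrrc4c at 98662659 (56.6) and the site 253 bp from Gm31068 near Foxk1 (51.8). The Foxk1 site had a summit of CD93-negative replicate 2 at 262 bp, just outside the distance used, with a score of 12.1. The next 6 scored 42.7 to 49.7 and included the start of Snhg15 near Myo1g (49.5) and the Mir210 site near Rassf7 (42.7).

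The neighbours were spread over many genes. The 693 sites had 609 nearest protein-coding genes, 2.82% of the 21631 genes, of which 540 had 1 site, 58 had 2, 7 had 3 and 4 had 4. The nearest gene had a gene-end summit of its own in the same list for 310 sites (44.7%), and so did 261 of the 609 distinct genes (42.9%, exact 95% interval 38.9 to 46.9%), against 32.6% of all genes. The share was 31.8% for sites at 1000 to 2000 bp and 49.8% at 10000 to 50000 bp, with overlapping intervals (18.6 to 47.6% and 44.0 to 55.7%).

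By number, genes of the quiescence and myeloid lists were the list genes met most often as neighbours. In the quiescence and dormancy list 9 of 31 genes were the nearest gene of a site (29.0%), in the myeloid list 6 of 26 (23.1%) and in the list of surface molecules used for sorting 2 of 7 (28.6%), against 2.82% of all genes. HSC identity genes gave 1 of 37, lymphoid 1 of 28, megakaryocyte and erythroid 1 of 28, endothelial 1 of 24 (Erg, which the HSC list also holds), histone 1 of 12 and housekeeping 2 of 40. The size of the space around a gene, which bears on how often it is a nearest gene, was not taken into account.

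Several quiescence genes are immediate-early or antiproliferative factors. Nr4a1, an orphan nuclear receptor linked to HSC quiescence, had a site 7440 bp upstream with scores of 68.7 and 13.2 in CD93-negative replicates 1 and 2. Fos, a component of AP-1, had 3 sites, at 18524 and 5036 bp upstream and 8817 bp downstream, with scores of 60.1, 12.8 and 37.5, and only the farthest was also in replicate 2 (24.2). Foxo3, which guards HSCs against oxidative stress, had a site 1130 bp upstream (32.8 and 9.19), and Cdkn1b, the cell cycle inhibitor p27, had a site 3265 bp downstream (17.9 and 8.61) that lay 302 bp from an end of the lncRNA gene Lockd. Btg2, an antiproliferative gene, had a site 13993 bp upstream (42.4), and Fosb one 10048 bp upstream (21.9), neither of them in another list. Jun had sites at 109136 and 163136 bp upstream with 24.2 and 13.7, the second also in replicate 2 (10.2). None of the sites of this paragraph was in a CD93-positive list. Of all 693 intergenic sites, only 4.62% were in CD93-positive replicate 2 and 0.289% in CD93-positive replicate 1.

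The genes of the sort itself were represented by Cd93 and Cd34. The Cd93 site lay on chromosome 2 at 148522218, inside the lncRNA gene Gm46770 and 78683 bp from Cd93, with a score of 23.5. The Cd34 site lay 15278 bp downstream of Cd34 and 389 bp from an end of Gm16897, with 13.6. The Erg site, for an ETS factor of HSCs and endothelium, lay 9252 bp downstream of the gene with 9.44. None of these 3 had a summit in another list, including the CD93-positive ones. Of all 693 intergenic sites, 581 were in no other list and only 4.62% were in CD93-positive replicate 2.

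Among myeloid genes Cebpb, a transcription factor of emergency granulopoiesis, had 4 sites between 63705 and 86990 bp downstream, with scores of 21.8, 22.8, 23.8 and 16.6, of which 1 was in CD93-negative replicate 2 (9.08). The others had single sites, at Ngp (17.6), Cebpe (14.4), Csf2ra (12.9), Csf3r (12.4) and the tRNA site near Fcgr3 (11.9). None of these was in another list, like 581 of all 693 sites. Genes with 3 or more sites were named after the values were seen. Beside Cebpb and Fos they included Cxcr4, the receptor that retains HSCs in the marrow, with 4 sites from 17883 to 120760 bp away (3.62 to 28.04), and Kcnrg, with 4 sites of which 3 lay at the start of or within Dleu2. Chd2 had 3 sites that included the Chaserr start.

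The spacing of the sites along the chromosomes was described without a reference placement. Another intergenic site lay within 10000 bp for 74 of 693 (10.7%), all of them in 37 pairs with no chain of 3 or more. Within 25000 bp it was 144 sites (20.8%), with 10 chains of 3 or more and the longest of 4. The gap between neighbours had a median of 1381699 bp, a lower quartile of 186061 bp and a minimum of 624 bp. Whether the sites were more grouped than their number and the positions of genes would give was not tested. By chromosome the sites made up from 5.10% (chromosome 7) to 14.0% (chromosome 12) of the summits.

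The 5 members with scores of 200 or more mostly recurred. CD93-negative replicate 2 held 4 of them (80.0%), CD93-positive replicate 2 all 5 (exact 95% interval 47.8 to 100%) and CD93-positive replicate 1 held 3 (60.0%, 14.7 to 94.7%). The intergenic sites nearest in score, at 50 to 200, recurred at 81.6% in CD93-negative replicate 2, 50.0% in CD93-positive replicate 2 and 2.63% (0.0666 to 13.8%) in CD93-positive replicate 1. The intervals overlapped in CD93-positive replicate 2 and were apart in CD93-positive replicate 1. The highest, on chromosome 2 at 98667132 and 1035460 bp from Lrrc4c, scored 2976 and 2097 in the CD93-negative replicates and 870 and 2136 in CD93-positive replicates 1 and 2. On chromosome 12 at 3109976, 137452 bp from Rab10, the scores were 527.7 in CD93-negative replicate 1 and 377.2 in CD93-positive replicate 2, with no summit in the other lists. On chromosome 9 at 35305454, inside Gm33838 and 29497 bp from Rpusd4, they were 378.9 and 257.5 in the CD93-negative and 113.9 and 312.0 in the CD93-positive replicates. On chromosome 14 at 19417308, 116392 bp from Gm2244, they were 289.2 and 205.6, with 238.8 in CD93-positive replicate 2. On chromosome 9 at 3024465, 310766 bp from Alkbh8, they were 234.6 and 171.1, with 57.4 and 154.9 in the CD93-positive replicates. Thus 3 of the 5 had a summit in every list, the Rab10 site had none in CD93-negative replicate 2 and CD93-positive replicate 1, and the Gm2244 site had none in CD93-positive replicate 1. The Lrrc4c site had another intergenic site 4473 bp away (56.6) and the Alkbh8 site had 2, at 5899 and 8375 bp (7.34 and 6.69). No list of artefact-prone regions was used, and whether these summits are artefacts was not tested.

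The share of intergenic sites was also compared between the groups. It was 8.75% and 4.95% in CD93-negative replicates 1 and 2, and 72.2% and 5.28% in CD93-positive replicates 1 and 2, the first of these on 13 of 18 summits. The group means were 38.8 ± 47.3% for CD93-positive and 6.85 ± 2.69% for CD93-negative cells (SD, n = 2 each). The difference of 31.9 percentage points had a two-sided p of 0.667 in an exact permutation test, in which this design cannot give less than 0.333, and without CD93-positive replicate 1 it was -1.57 points. In the other direction, all 37 intergenic sites of CD93-positive replicate 2 had a summit of CD93-negative replicate 1 within 250 bp (exact 95% interval 90.5 to 100%), as did 108 of 136 (79.4%) of CD93-negative replicate 2 and 5 of 13 of CD93-positive replicate 1.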

How the data were processed

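ATAC-seq summit lists of 4 libraries were used, 1 list per library and not pooled. Per the submitters' processing notes, Bowtie2, MACS2 and mm10 were used; not given in the sources used here are their versions, any read filter or Tn5 shift, and the calling threshold. The deposited score is a −log10 p or q value, which of them is not stated, and it is relative to each library's own background, so scores were used mainly within a list. Groups and replicates follow the sample titles, although names within the lists carry other replicate numbers. Genes were placed with RefSeq's GRCm38.p6 table, and strand from the RefSeq promoter windows, which cover protein-coding and lncRNA genes and none on chromosome 18. A site recurred if a summit of another list lay within 250 bp. Exact (Clopper-Pearson) 95% intervals and the exact permutation test came from scipy 1.17.1, tables from pandas 2.3.3 and numpy 2.4.6 under Python 3.11.15, and plots from matplotlib 3.10.9. On simulated data 600 of 600 site classes and 238 of 238 planted recurrences were recovered. The members and gene lists were chosen with earlier results of these data known.

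Sites were named as the nearest gene of each site of 200 or more, the 10 highest in both other long lists, the 10 highest in no other list, the 5 farthest, list genes, and up to 15 non-coding genes by score. Of tRNA, small RNA and microRNA sites, of genes with 3 or more sites and of the 24 shared sites, further examples were chosen after their values were seen. Alternatives were other sharing, gene-end and neighbour distances, score minimums, all RefSeq genes, merged summits, equal list sizes, a fit with a replicate block, and each library left out in turn.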

Additional observations from a re-analysis of the deposited data

How the results depend on the processing

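With gene ends of all RefSeq genes excluded, the intergenic sites numbered 389, and with scores of at least 10 they numbered 437, against 698. Recurrence in CD93-negative replicate 2 was 11.8% at a sharing distance of 100 bp and 10.9% with scores of at least 10 in both lists, against 15.01%; fewer summits were tested in the latter. Sites with a neighbour numbered 26 within 5000 bp and 144 within 25000 bp, against 74 within 10000 bp. Counting genes on both sides gave 1117 neighbours in place of 609. The group difference in intergenic share was -1.57 points without CD93-positive replicate 1, and leaving out each library in turn gave -1.57 to 65.4 points. With a replicate block it was 31.9 points (exact permutation p = 0.5), and the labels do not say that the numbers pair the libraries. With scores of at least 5 and of at least 10 it was 46.5 and 49.4 points (exact permutation p = 0.667 and 0.333). The other alternatives for counts and recurrence, including sites of 100 or more kept apart, an alternative added after seeing the data, kept the counts within 1.5 times and the recurrence shares within their intervals. Of 20 named sites, 19 kept the number of lists holding them at each of the 3 other sharing distances. Read depth is unknown, so absence from a shorter list is not evidence of closed chromatin.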

Other observations

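Intergenic sites of the other lists that had no summit of CD93-negative replicate 1 within 250 bp were few and weak. CD93-negative replicate 2 had 28, with scores of 3.17 to 13.8 and a median of 4.84, and 11 of these lay within 1000 bp of a summit of replicate 1. They included sites near Trim33 (8.87), Il1b (6.30), Rac2 (4.58) and Bcl3 (3.28), named after their values were seen. CD93-positive replicate 1 had 8, near Tra2b, Pcsk5, Elavl2, Klhdc7a, Pcdh7, Fgfr2, Bckdhb and Plxnb3, with scores of 3.36 to 4.38 and the nearest summit of CD93-negative replicate 1 at least 31449 bp away. CD93-positive replicate 2 had 0.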
